A study of Nicotiana tabacum with 21 samples.

Results

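Transcripts that stay at an even, high level in auxin-habituated and auxin-dependent tobacco cells were collected from the TPM values of 21 RNA-seq libraries. TPM gives the share of one transcript among all transcripts of a library, corrected for length and scaled to the same total in each library. A transcript was a member when the lowest of its 7 group means was at least 50 TPM and the highest was at most 1.4 times the lowest. Of 69491 transcripts, 27 met both limits. A further 1266 transcripts had a lowest group mean of at least 50 TPM, and together with the members they are called abundant here. The members were chosen by these group means, so their even levels are a description and were not tested. The members were set beside NtEF1a and aminopeptidase, the pair of reference transcripts used for RT-qPCR in the study, which the rule did not choose. The RT-qPCR that the study shows is of BY-2, BY-2H and transformed BY-2 cells, and not of VBI cells.

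RT-qPCR measures a transcript relative to reference transcripts in the same RNA, so that any difference in the references between samples is passed on to every target. NtEF1a encodes elongation factor 1-alpha, which brings aminoacyl-tRNAs to the ribosome, and aminopeptidases cleave amino acids from the N-terminal end of peptides and proteins. Genes of translation and protein turnover are common choices for references because dividing cells need them at all times, but the levels of such genes can still change with growth.

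The cells were suspension cultures of Nicotiana tabacum in 7 groups of 3 replicates: auxin-habituated BY-2H in the stationary and exponential phase, auxin-dependent BY-2 in the stationary phase, habituated VBI-2 in both phases and dependent VBI-0 in both phases. BY-2H and BY-2 come from the cultivar Bright Yellow 2 and grew in Murashige and Skoog medium, BY-2H without auxin and BY-2 with it. VBI-2 and VBI-0 come from the cultivar Virginia Bright Italia and grew in modified Heller medium, VBI-2 without auxin and VBI-0 with 2,4-D and NAA. Cells were 3 d old in the exponential and 10 d old in the stationary phase by the series' description, and a figure legend in the study's supplement gives a younger age for stationary BY-2 cells. Each habituated line is 1 line, so a difference within a pair cannot be told apart from the auxin supplied or from what is particular to that line. BY-2H libraries were made by Novogene with long paired reads and all others by GATC Biotech with short single reads, so company and read type cannot be told apart from the line between BY-2H and the other lines. Within the VBI lines neither differed.

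Libraries held 10545447 to 22564711 estimated reads (read pairs in BY-2H), with a median of 13273004. Stationary BY-2 libraries stood apart: their 10 most abundant transcripts took 4.07% to 4.93% of the reads, against 1.67% to 2.28% in the other 18 libraries. Their replicates also lay farther apart. No gene was altered on purpose in any line, so there is no such gene by which to check the labels. The study reports multiplied copies of the auxin receptor gene NtTIR1T in BY-2H. Its transcript had 1247 TPM in stationary BY-2H and 7.84 TPM in stationary BY-2, as these 2 labels would have it. The files name no transcript that marks a cell type, so the label of suspension cells was not checked.

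The members could be given by identifier alone. None of the 27 matched a name in the RefSeq gene table (assembly ASM71507v2) or any of the 2436 transcripts that the study's supplementary lists identify, so no function is stated for any of them. The primers of both references are shown because they define what was measured as a reference by RT-qPCR. They are written 5′ to 3′ in lower case. The aminopeptidase primers are for Nitab4.5_0002975g0050.1 and the NtEF1a primers for Nitab4.5_0001802g0030.1.
aminop_qFor1: tttgtgggtcgcctgtcaat
aminop_qRev1: cgcttccacctagagaacgc
NtEF1a F: tgagatgcaccacgaagctc
NtEF1a R: ccaacattgtcaccaggaagtg
The primers were 20 to 22 bases long with 50% to 60% G and C. The primer list pairs the NtEF1a transcript with a gene that the RefSeq table also gives for the accession in the study's methods, but the accession in the list itself belongs to another gene. The copy that the list means is uncertain to that extent, and whether the primers fit further copies was not tested.

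Even levels were rare among abundant transcripts. The median ratio of the highest to the lowest group mean was 2.88 among all abundant transcripts, with quartiles of 2.13 and 4.35 and a highest ratio of 77.4. A ratio above 2 was found for 1033 of them (79.9%), and the 27 members made up 2.09%. Without a level minimum, 164 of the 26327 transcripts with every group mean above 0.5 TPM (0.623%) had a ratio of at most 1.4.

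**Figure D1:**
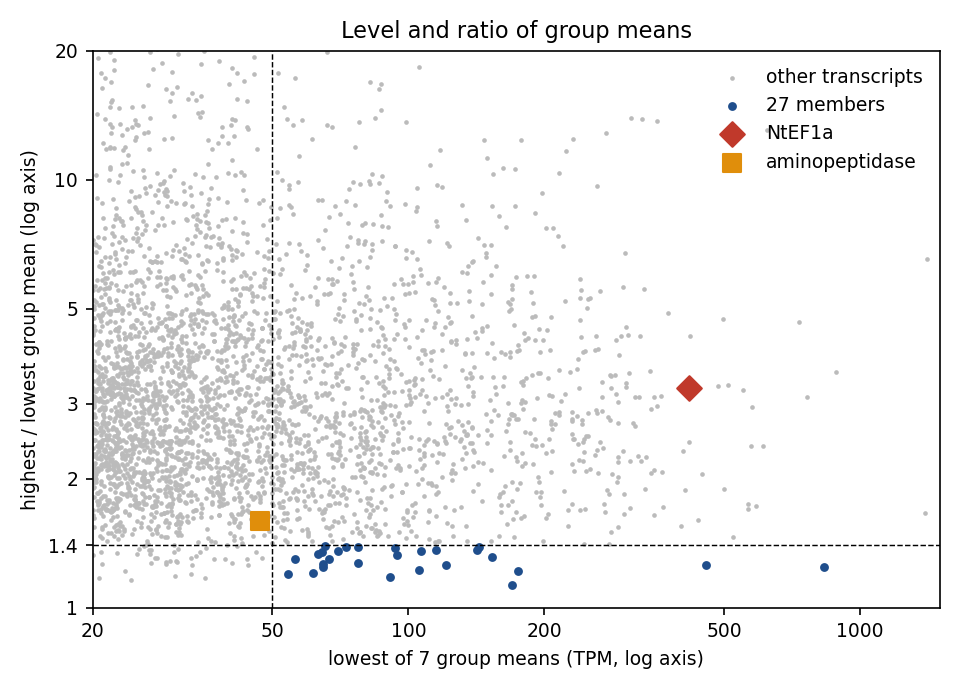
Lowest of the 7 group means (x axis, TPM, log axis) against the ratio of the highest to the lowest group mean (y axis, log axis) for transcripts with a lowest group mean of at least 20 TPM and a ratio up to 20. Dashed lines mark 50 TPM and a ratio of 1.4. The 27 members lie in the lower right field, NtEF1a lies above it at a ratio of 3.27, and aminopeptidase lies just outside it at 46.9 TPM and 1.59.

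Among the members the ratio ran from 1.13 to 1.396 with a median of 1.303, and 12 members had a ratio under 1.3. The member with the lowest ratio was Nitab4.5_0001101g0090.1 at 1.13. Its TPM values were 178, 166 and 166 in stationary BY-2H, 181, 173 and 178 in exponential BY-2H and 187, 201 and 178 in stationary BY-2. It had 173, 175 and 174 TPM in stationary VBI-2, 155, 184 and 171 TPM in exponential VBI-2, 198, 199 and 173 TPM in stationary VBI-0 and 182, 192 and 203 TPM in exponential VBI-0. The lowest library was of exponential VBI-2 and the highest of exponential VBI-0, and these groups overlapped.

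Nitab4.5_0018206g0010.1 followed with a ratio of 1.18 and group means of 91.2 TPM (stationary VBI-0) to 107.7 TPM (exponential VBI-2). Nitab4.5_0004090g0110.1 had a ratio of 1.201 and the lowest level of all members, with a mean of the 7 group means of 59.3 TPM. Nitab4.5_0001796g0020.1 had a ratio of 1.21 and a mean level of 66.0 TPM. Nitab4.5_0002129g0130.1 and Nitab4.5_0000540g0180.1 both had a ratio of 1.22, at mean levels of 189.8 TPM and 116 TPM, and Nitab4.5_0000360g0160.1 had one of 1.24 at 73.7 TPM. These transcripts had no common highest group in TPM (with TMM scaling it was stationary BY-2 for all): the highest mean lay in exponential VBI-2, exponential VBI-0, stationary VBI-0, stationary BY-2, stationary VBI-2 and stationary VBI-0.

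The most abundant member was Nitab4.5_0002995g0050.1, with a mean level of 939 TPM and a ratio of 1.24. It had 978, 913 and 1036 TPM in stationary BY-2H, 1139, 887 and 997 TPM in exponential BY-2H and 926, 864 and 910 TPM in stationary BY-2. It had 861, 802 and 836 TPM in stationary VBI-2, 953, 961 and 967 TPM in exponential VBI-2, 832, 870 and 877 TPM in stationary VBI-0 and 993, 1001 and 1116 TPM in exponential VBI-0. In both VBI lines the stationary libraries lay below the exponential ones without overlap, while the BY-2H phases overlapped. The next was Nitab4.5_0004607g0010.1, with a mean level of 514 TPM. It had the narrowest range over single libraries of all members, from 445 TPM in a stationary VBI-2 library to 578 TPM in an exponential BY-2H library, a ratio of 1.299. Nitab4.5_0004277g0020.1 (186 TPM on average) was the only other transcript among the 5 most abundant members not yet named.

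Single libraries were less even than group means. The ratio of the highest to the lowest of 21 libraries had a median of 1.56 over the members and was at most 1.4 for 5 of them. It stayed below 2 for 26 members and was 3.26 for Nitab4.5_0000336g0150.1. The coefficient of variation (SD over mean) over all 21 libraries was 7.01% to 21.9% with a median of 11.5%, against a median of 38.8% for the 1266 other abundant transcripts. This difference follows from the rule and was not tested.

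Values near the limits show how gradual the choice was. Just inside the level minimum lay Nitab4.5_0004090g0110.1, Nitab4.5_0005737g0010.1 and Nitab4.5_0001796g0020.1, with lowest group means of 54.0, 56.0 and 61.5 TPM. Just outside lay Nitab4.5_0005266g0110.1, Nitab4.5_0003698g0100.1 and Nitab4.5_0001728g0070.1 at 47.4, 46.0 and 44.1 TPM. Just inside the ratio limit lay Nitab4.5_0008782g0060.1, Nitab4.5_0000573g0150.1 and Nitab4.5_0002172g0140.1 at 1.396, 1.391 and 1.385, and just outside Nitab4.5_0001000g0170.1, Nitab4.5_0012854g0010.1 and Nitab4.5_0003044g0020.1 at 1.41, 1.41 and 1.42. A limit of 1.5 gave 59 transcripts, and a level minimum of 20 TPM gave 66.

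On the TPM scale the members did not share 1 group as their highest or lowest, whereas with TMM scaling, which assumes that most transcripts do not differ between libraries, all 27 were highest in stationary BY-2. The highest mean TPM lay in stationary VBI-0 for 8 members, in exponential VBI-0 for 6, in stationary BY-2 and stationary VBI-2 for 4 each, in the exponential phase of BY-2H and of VBI-2 for 2 each and in BY-2H of the stationary phase for 1. The lowest mean lay in exponential BY-2H for 8 members, in each VBI-0 phase for 5, in stationary BY-2H for 3 and in stationary BY-2 and each VBI-2 phase for 2. Of the other abundant transcripts, 35.4% were lowest in stationary BY-2 (7.41% of members) and 8.14% in exponential BY-2H (29.6% of members), and 12.3% were highest in stationary VBI-0 (29.6% of members). These shares come from the means that chose the members, and nothing is read from them. Relative to its own mean, no group mean of a member was below 0.81 or above 1.24. Between 18.1% and 78.9% of the variance of a member's log2 TPM lay between groups (median 62.7%), against a median of 95.9% for other abundant transcripts.

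**Figure D2:**
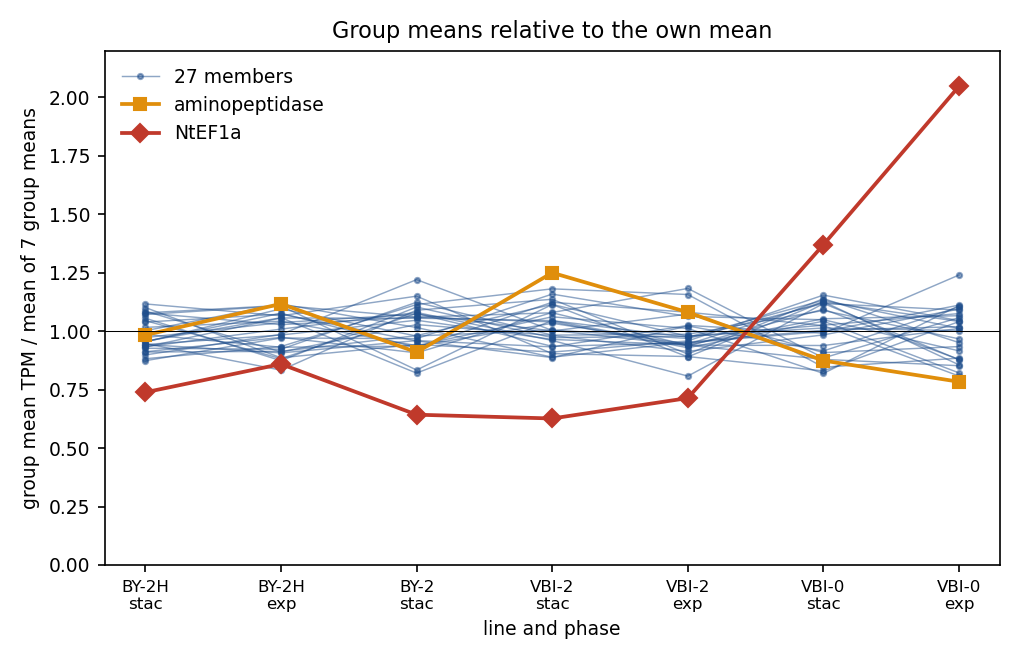
Group mean TPM divided by the mean of the 7 group means (y axis) by line and phase (x axis) for the 27 members (thin blue lines), aminopeptidase (squares) and NtEF1a (diamonds). The members lie between 0.81 and 1.24, aminopeptidase between 0.78 and 1.25 and NtEF1a between 0.63 and 2.05, with its highest values in VBI-0.

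The rule used only the means of the replicates, but a wide spread makes a mean of 3 libraries less certain. The spread within a group is therefore not independent of the rule, and it is given as a description. The median coefficient of variation over the 3 replicates was 4.63% in stationary BY-2H, 3.81% in exponential BY-2H, 11.4% in stationary BY-2, 5.37% in stationary VBI-2, 6.01% in exponential VBI-2, 6.99% in stationary VBI-0 and 7.36% in exponential VBI-0. With TMM scaling the median in stationary BY-2 was 25.6%. For the other abundant transcripts the medians in TPM were 5.98%, 4.56%, 13.7%, 6.04%, 6.56%, 5.93% and 7.17% in the same order. The members were less variable than these in 5 groups and more variable in both VBI-0 groups. The median of the members was 3.49% without stationary VBI-2 replicate 3, 3.68% without exponential VBI-2 replicate 1 and 4.43% without stationary VBI-0 replicate 3, each in its own group. Members share their libraries and are not replicates of each other, so this difference was not tested.

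Stationary BY-2 was the group of the largest spread for 18 of 27 members and for 750 (59.2%) of the other abundant transcripts. Without replicate 2 of stationary BY-2, the median over members fell to 5.74% in this group. The largest spread of any member was 50.7%, for Nitab4.5_0000336g0150.1 in stationary BY-2, where its libraries had 146, 44.7 and 119.8 TPM. Its other 18 libraries had 69.3 to 114 TPM, so that 1 library lay below and 2 above all of these. Nitab4.5_0000464g0120.1 had 192, 136 and 115 TPM in stationary BY-2, a spread of 26.8%. Nitab4.5_0000957g0030.1, the shortest member with 297 bases, had 50.4, 89.2 and 60.3 TPM in exponential BY-2H (30.2%). The most even members within groups were Nitab4.5_0004607g0010.1, Nitab4.5_0002129g0130.1 and Nitab4.5_0005737g0010.1, whose largest spread in any group was 7.36%, 7.48% and 8.46%.

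**Figure D3:**
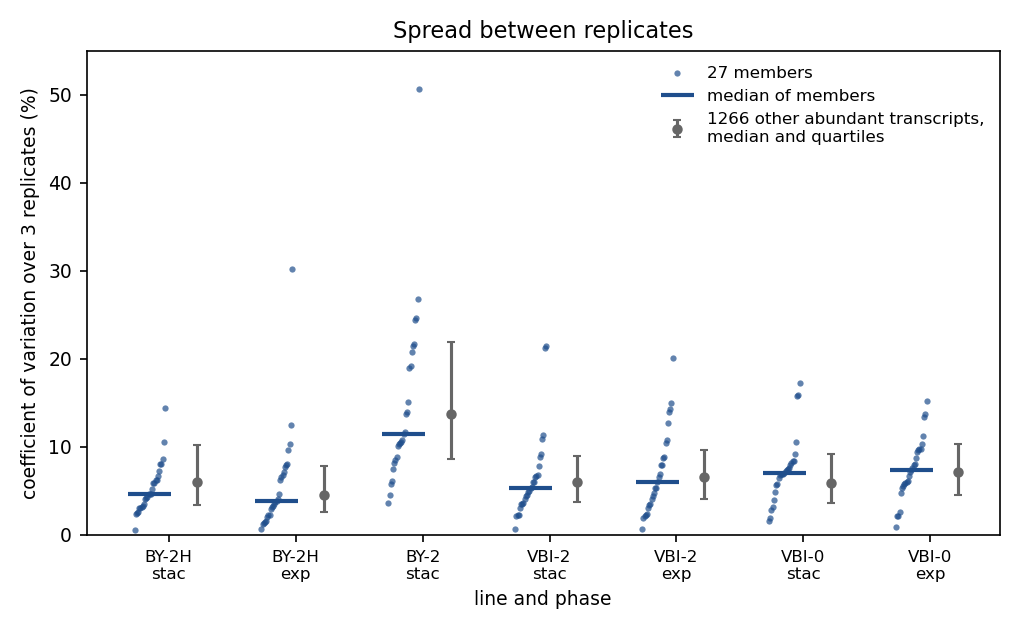
Coefficient of variation over 3 replicates (y axis, percent) by line and phase (x axis). Blue points are the 27 members, blue bars their medians, and grey points with bars the median and quartiles of 1266 other abundant transcripts. The median of the members is highest in stationary BY-2 (11.4%) and lowest in exponential BY-2H (3.81%).

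The spread was mostly wider than read counting alone would give. A member had between 51.0 and 11732 estimated reads in a library, with a median of 1845. Of 189 combinations of member and group, 166 had a coefficient of variation above the one expected from read counting, whose median over members was 2.06% to 2.55% by group. These expected values cover counting error only. The lowest read number belonged to Nitab4.5_0000957g0030.1.

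Length and position were compared apart from the levels. Their lengths were 297 to 2604 bases with a median of 978, against 799.5 for other abundant transcripts, and their median level was 100.4 TPM, against 185 TPM. They lay on 26 scaffolds, and only scaffold 0000068 held 2 of them, Nitab4.5_0000068g0170.1 and Nitab4.5_0000068g0330.1, which are not next to each other by gene number. Of 48 transcripts next to a member by gene number, 0 were members (0.039% of all transcripts), 3 were abundant and 29 had every group mean above 0.5 TPM. Of these 29, 19 had a ratio above 2, as had 79.9% of abundant transcripts. The share among all transcripts with every group mean above 0.5 TPM is not given here, so nothing is read from these counts.

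Salmon shares reads among transcripts that they fit equally, and an estimate that is not a whole number shows such sharing. Counted as whole within 1e-06 reads, Nitab4.5_0000588g0300.1 had whole estimates in 20 of 21 libraries, Nitab4.5_0001796g0020.1 in 19, Nitab4.5_0000573g0150.1 in 18 and Nitab4.5_0004607g0010.1 in 10. Within 0.05 reads, the same members had 20, 19, 20 and 12 such libraries, and Nitab4.5_0007630g0010.1 joined them with 19. Members with whole estimates in at least 10 libraries thus numbered 4 or 5, against 6.48% or 10.1% of other abundant transcripts. Within 1e-06 reads, 15 members had whole estimates in 0 libraries (63.1% of other abundant transcripts), and within 0.05 reads 2 members had (5.53%). Tobacco is an allotetraploid with gene copies from an S and a T parent. The level of a member whose estimates are not whole may therefore hold reads of a near-identical copy. The estimates of both references were whole in 0 libraries within 1e-06 reads and in 1 library within 0.05 reads.

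The effective length by which Salmon divides reads was the same lowest value, 251 bases, for 3862 to 5422 transcripts in each of the 15 BY-2 and VBI libraries, and for 3 to 128 in the BY-2H libraries. Of the members, 4 were at this value in at least 1 library, and so were 19.98% of other abundant transcripts. The most abundant member, Nitab4.5_0002995g0050.1, was at 251 bases in 12 libraries and between 442 and 474 bases in the BY-2H libraries. With reads per annotated length in its place, its ratio of group means was 1.86 instead of 1.24, and stationary BY-2H was 1.57 times as high as stationary BY-2, against 1.08 times on the TPM scale. Nitab4.5_0000360g0160.1 changed to 1.42 and Nitab4.5_0000336g0150.1 to 1.56, while Nitab4.5_0000573g0150.1 had 1.34. With reads per annotated length for all transcripts, 43 met the rule, and 14 of the 27 members were among them. That setting was chosen after the effective lengths had been seen.

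TPM is a share of the library, and fewer cells and less RNA per cell cannot be told apart in bulk samples. TMM scaling is relative as well and holds no amount per cell either. To see how far the choice of scale matters, the members were also placed on the TMM scale. Its levels are reads per effective length, divided by library factors taken from counts without lengths. The shift between the scales thus also depends on the effective lengths in each library, whose part was not tested. On the TMM scale the levels of abundant transcripts shifted against TPM by a mean of 0.43 on log2 in stationary BY-2 (0.24 to 0.70 in single libraries) and by -0.12 to 0.07 in the other groups. All 27 members then had their highest mean in stationary BY-2. Their geometric mean per library was 146, 193 and 137 in stationary BY-2, against 101 to 122 in the other 18 libraries, whereas on the TPM scale it was 115, 120.3 and 118 in stationary BY-2 and 111 to 119.8 in the others. The rule applied to TMM-scaled levels gave 34 transcripts, of which 2 were members, and without stationary BY-2 it gave 118, of which 21 were members. The even levels of most members across all 7 groups therefore hold on the TPM scale, and which scale is closer to the amount per cell was not tested.

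**Figure D4:**
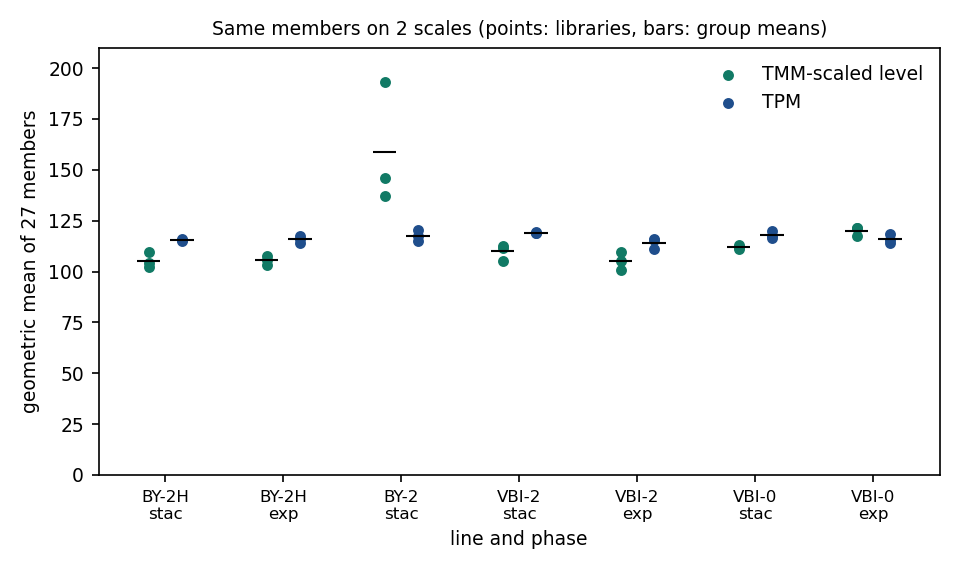
Geometric mean of the 27 members per library (points) and group mean (bars) on the TMM scale (left in each pair, green) and as TPM (right, blue) by line and phase. TPM values lie between 111 and 120.3 in all 21 libraries, and TMM-scaled values reach 137 to 193 in stationary BY-2.

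NtEF1a was abundant but far from even. It had 490.4, 504 and 484 TPM in stationary BY-2H, 579, 583 and 558 TPM in exponential BY-2H and 339.8, 366 and 581 TPM in stationary BY-2. It had 414, 379.6 and 459.9 TPM in stationary VBI-2, 439, 521 and 469 TPM in exponential VBI-2, 904, 858 and 981 TPM in stationary VBI-0 and 1379, 1159.95 and 1559.6 TPM in exponential VBI-0. Both VBI-0 groups lay above every library of the other lines. The order of means was exponential VBI-0, stationary VBI-0, exponential BY-2H, stationary BY-2H, exponential VBI-2, stationary BY-2 and stationary VBI-2, and from stationary BY-2H downwards each group overlapped with the next. Its ratio of group means was 3.27, and 59.2% of abundant transcripts had a lower one.

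Aminopeptidase was lower and more even. It had 60.0, 61.0 and 55.5 TPM in stationary BY-2H, 68.1, 64.3 and 68.0 TPM in exponential BY-2H and 54.9, 50.2 and 58.2 TPM in stationary BY-2. It had 68.4, 78.2 and 77.8 TPM in stationary VBI-2, 61.9, 67.6 and 64.5 TPM in exponential VBI-2, 50.9, 53.5 and 52.5 TPM in stationary VBI-0 and 46.8, 44.9 and 49.0 TPM in exponential VBI-0. The VBI-2 libraries lay above all VBI-0 libraries. Its lowest group mean of 46.9 TPM and its ratio of 1.59 both missed the limits of the rule, and 95 abundant transcripts (7.35%) had a lower ratio. On TMM-scaled levels its ratio was 1.498, below which lay 4.10% of abundant transcripts and 3 of the 27 members, whose median ratio on that scale was 1.67. In the order of TPM means (stationary VBI-2, exponential BY-2H, exponential VBI-2, stationary BY-2H, stationary BY-2, stationary VBI-0, exponential VBI-0), exponential BY-2H overlapped with exponential VBI-2, and stationary BY-2H, stationary BY-2 and stationary VBI-0 each overlapped with the next among them.

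**Figure D5:**
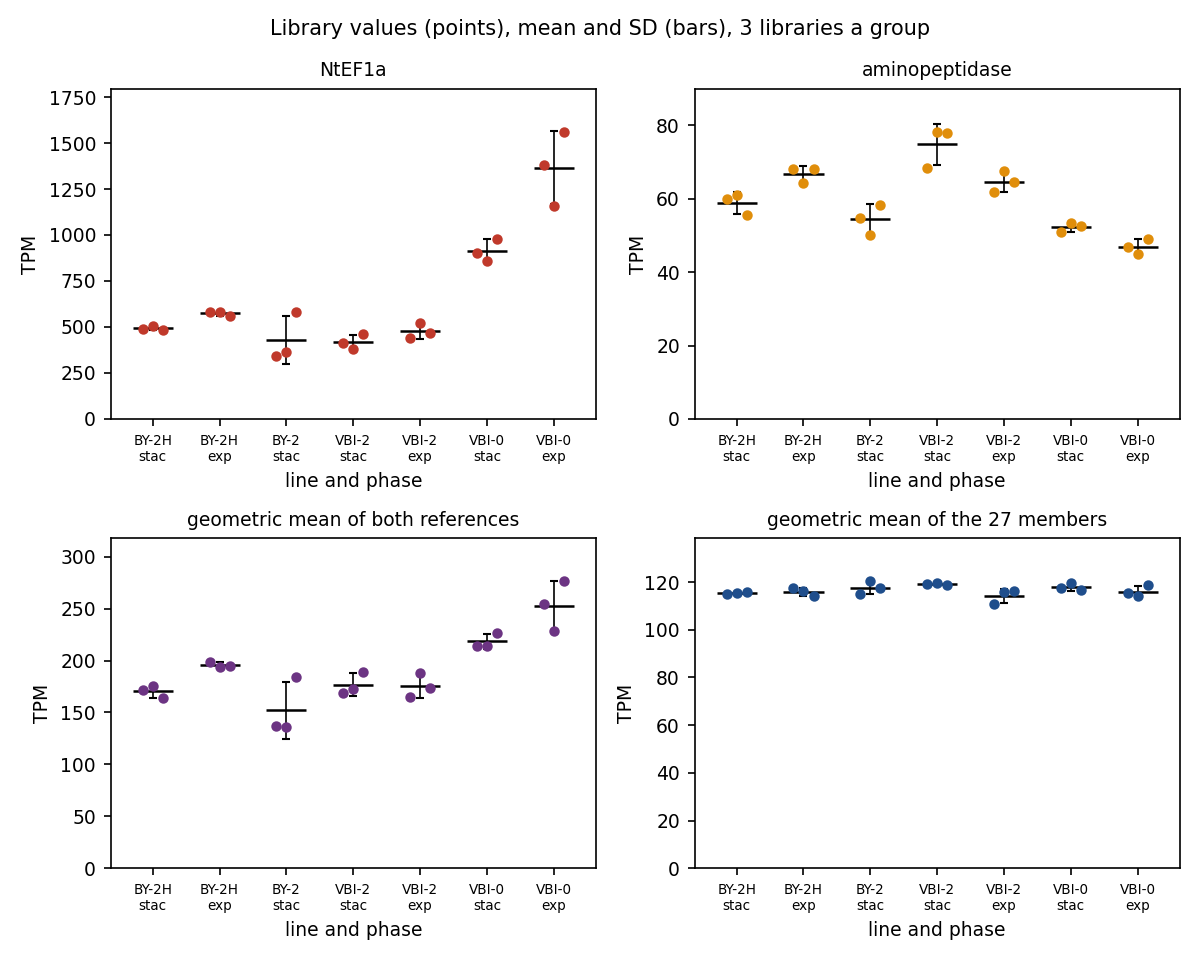
TPM (y axes, from 0) of NtEF1a, aminopeptidase, the geometric mean of both and the geometric mean of the 27 members by line and phase (x axes). Points are libraries, and bars are means with SD (n = 3). NtEF1a is highest in VBI-0 (914 and 1366 TPM on average), aminopeptidase is lowest there (52.3 and 46.9 TPM), and the members' geometric mean stays between 111 and 120.3 TPM.

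Both references differed between the VBI lines, in opposite directions. In VBI-2 cells NtEF1a was lower than in VBI-0 cells, by a log2 fold change of -1.26 ± 0.08 (SE) in the stationary phase (edgeR quasi-likelihood test, adjusted p = 2.89e-11) and of -1.56 ± 0.08 in the exponential phase (edgeR, adjusted p = 1.15e-12). Aminopeptidase was higher in VBI-2 than in VBI-0, by 0.34 ± 0.08 in the stationary phase (edgeR, adjusted p = 0.000737) and 0.33 ± 0.08 in the exponential phase (edgeR, adjusted p = 0.00088). In all 4 tests the libraries of the lines did not overlap in TPM, and 61.9% (stationary) and 60.7% (exponential) of all transcripts tested passed the same limit of an adjusted p of 0.05. NtEF1a also passed the limit of an absolute log2 fold change of 1 that the study set for DEGs, and aminopeptidase did not. The labels call the libraries of a group biological replicates without naming separate cultures, so the p-values measure the spread between these libraries.

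Between stationary BY-2H and BY-2 cells neither reference passed the test. The log2 fold change was -0.15 ± 0.17 for NtEF1a (edgeR, adjusted p = 0.468) and -0.24 ± 0.15 for aminopeptidase (edgeR, adjusted p = 0.192), beside 52.3% of transcripts called. On the log2 TPM scale both differences were positive, at 0.24 for NtEF1a and 0.11 for aminopeptidase, so that no direction can be given. The BY-2 libraries of NtEF1a ran from 339.8 to 581 TPM and enclosed all 3 BY-2H libraries.

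Between the phases NtEF1a was lower in stationary than in exponential cells of BY-2H, VBI-2 and VBI-0, the lines with libraries of both phases. Its log2 fold change was -0.60 ± 0.08 in VBI-0 (edgeR, adjusted p = 1.74e-05), -0.22 ± 0.06 in BY-2H (edgeR, adjusted p = 0.00362) and -0.30 ± 0.08 in VBI-2 (edgeR, adjusted p = 0.0318). The call in VBI-2 was lost without stationary VBI-2 replicate 1 or 2, exponential VBI-2 replicate 2 or 3, or stationary VBI-0 replicate 1 (edgeR, adjusted p = 0.0505 to 0.182). With limma on log2(TPM + 0.5) neither BY-2H (adjusted p = 0.069) nor VBI-2 (adjusted p = 0.497) passed, nor did they with all 21 libraries in 1 edgeR fit (adjusted p = 0.445 and 0.316). Aminopeptidase had 0.13 ± 0.08 in VBI-2 (edgeR, adjusted p = 0.467), 0.12 ± 0.08 in VBI-0 (edgeR, adjusted p = 0.331) and -0.18 ± 0.07 in BY-2H (edgeR, adjusted p = 0.0616). Of all transcripts tested, 18.1% were called between the phases in VBI-0, 10.4% in BY-2H and 5.02% in VBI-2. In a single test over all 7 groups both references differed (edgeR, F = 79.7 and adjusted p = 1.59e-13 for NtEF1a, F = 6.48 and adjusted p = 0.000512 for aminopeptidase), as did 91.4% of 49980 transcripts.

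The references moved in opposite directions between the VBI lines. Their geometric mean, a usual way to combine references, was more even in TPM than NtEF1a but less even than aminopeptidase alone. The coefficient of variation over 21 libraries was 18.2% for the geometric mean and 15.8% for aminopeptidase, whose ratio of group means was 1.59. Group means of the geometric mean ran from 152 TPM in stationary BY-2 to 253 TPM in exponential VBI-0, a ratio of 1.66. In VBI-2 it was 0.81 times the VBI-0 value in the stationary phase (177 ± 11.02 TPM against 219 ± 7.30 TPM, SD, n = 3 each) and 0.69 times in the exponential phase (175 ± 11.4 TPM against 253 ± 24.1 TPM, SD, n = 3 each), without overlap of the libraries. In stationary BY-2H it was 170.3 ± 5.88 TPM, against 152 ± 27.6 TPM in stationary BY-2, with overlap. This direction turned with the scale: the log2 difference was 0.18 in TPM, -0.37 with TMM and -0.40 with median-of-ratios scaling. A two-sided exact permutation test of 3 against 3 libraries cannot give a p below 0.1. It gave 0.1 for both VBI comparisons and for the phases in BY-2H (-0.20 on log2) and VBI-0 (-0.21), 0.4 for BY-2H against BY-2 and 0.9 for the phases in VBI-2, and after adjustment over the 6 comparisons the values were 0.15 for the first 4, 0.48 and 0.9.

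The ratio of NtEF1a to aminopeptidase, which should be constant between references that move together, was 5.61 ± 0.66 in stationary VBI-2 and 17.5 ± 1.33 in stationary VBI-0, and 7.36 ± 0.31 in exponential VBI-2 and 29.1 ± 3.02 in exponential VBI-0 (SD, n = 3 each). It was 8.38 ± 0.29 in stationary BY-2H and 7.82 ± 1.94 in stationary BY-2. The mean SD of the log2 ratio of one transcript to each member over 21 libraries, a measure used to rank reference genes, was 0.66 for NtEF1a and 0.28 for aminopeptidase. Among the members it was 0.20 to 0.41 with a median of 0.24, lowest for Nitab4.5_0001101g0090.1 and highest for Nitab4.5_0000336g0150.1. The rule favours low values for members, so these values are no test of them.

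The members most like the geometric mean of both references were those whose log2 ratio to it varied least over the 21 libraries. They were Nitab4.5_0000164g0190.1 with an SD of 0.22, Nitab4.5_0001796g0020.1 with 0.24 and Nitab4.5_0001000g0100.1 with 0.24, against 0.26 for the geometric mean itself without any division. Nitab4.5_0000164g0190.1 had 181, 202 and 199.8 TPM in exponential VBI-0, where the geometric mean was highest too, and 129.9 to 167 TPM in the other 18 libraries. In that group NtEF1a was highest (1366 TPM on average), but aminopeptidase was lowest (46.9 TPM). The log2 ratio of this member to NtEF1a alone had an SD of 0.54 and that to aminopeptidase alone 0.36. Without any division the SD was 0.63 for NtEF1a and 0.23 for aminopeptidase, so this member was not close to aminopeptidase. These likenesses are a description over libraries that share lines.

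The choice of reference changed the size of target differences in these RNA-seq data. For the VBI lines the study shows no RT-qPCR. NtTIR1T (Nitab4.5_0000824g0070.1) was 3.90 times as high in exponential VBI-2 as in exponential VBI-0 on the TPM scale, 11.1 times relative to NtEF1a, 2.84 times relative to aminopeptidase, 5.61 times relative to their geometric mean and 3.96 times relative to the geometric mean of the 27 members. It had 361 estimated reads over 3 libraries in VBI-2 and 106 in VBI-0, so these folds rest on few reads. Between stationary BY-2H and BY-2 the same folds were 159, 125, 147, 136 and 161, a much narrower range in proportion. The members were chosen for even TPM, so folds relative to them must lie near the TPM folds. These folds are therefore no test of the members as references. On the TMM scale the geometric mean of the members had a ratio of highest to lowest group of 1.51. NtTIR1S (Nitab4.5_0003614g0030.1), the copy of the other subgenome, was 13.7 times as high in exponential VBI-2 as in VBI-0 relative to NtEF1a and 3.49 times relative to aminopeptidase. NtTAA1 (Nitab4.5_0002255g0070.1), an enzyme of auxin biosynthesis, was 15.6 and 3.86 times as high, and NtYUCCA3 (Nitab4.5_0000451g0110.1), which acts after it, 6.52 and 1.65 times, on 37.0 reads in VBI-2 and 20.5 in VBI-0. Near-identical copies may share reads, so the folds of single copies are uncertain.

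Counts of members called stand beside the share of all transcripts called. With the edgeR test and an adjusted p of at most 0.05, 12 of 27 members were called between stationary BY-2H and BY-2, where the background of all transcripts was 52.3%. Of these, 1 was higher in BY-2H (background 24.9%) and 11 were lower (27.4%). The test used counts without a correction for effective length. The 1 higher member was Nitab4.5_0002995g0050.1 (log2 fold change 0.43), with an effective length of 468 bases in stationary BY-2H and 251 bases in stationary BY-2. Its libraries overlapped in TPM, and the part of effective length in these calls was not tested. Between stationary VBI-2 and VBI-0, 8 were called (61.9%), 5 higher in VBI-2 (29.7%) and 3 lower (32.2%). Between exponential VBI-2 and VBI-0, 15 were called (60.7%), 2 higher in VBI-2 (29.2%) and 13 lower (31.6%). Between stationary and exponential BY-2H cells, 4 were called (10.4%), 4 higher in the stationary phase (5.88%) and 0 lower (4.55%). In VBI-2 the edgeR test called 0 between the phases (5.02%), against 2.3% of all transcripts higher and 2.72% lower. In VBI-0, 9 were called (18.1%), 0 higher in the stationary phase (7.91%) and 9 lower (10.2%). Between the phases of VBI-2, 5 members had an unadjusted p under 0.05, and DESeq2 called 1. With the further limit of an absolute log2 fold change of 1, 0 members were called in any comparison. The background with that limit was 43.1% between BY-2H and BY-2, 39.9% and 38.5% between VBI-2 and VBI-0 in the stationary and exponential phase, and 2.68%, 1.6% and 4.45% between the phases of BY-2H, VBI-2 and VBI-0. Over the 7 groups 25 members were called (background 91.4%), all but Nitab4.5_0000540g0180.1 (edgeR, adjusted p = 0.12) and Nitab4.5_0001000g0100.1 (edgeR, adjusted p = 0.0534).

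Between BY-2H and BY-2 the median log2 fold change over the 27 was -0.41, while the median log2 ratio of their TPM means was -0.04. With limma on log2(TPM + 0.5), 2 members were called between BY-2H and BY-2, 5 between stationary and 6 between exponential VBI-2 and VBI-0, and 0 between the BY-2H phases. With all 21 libraries in 1 edgeR fit, 3 were called between stationary and 9 between exponential VBI-2 and VBI-0, 0 between the BY-2H phases and 5 between the VBI-0 phases, and an effective length offset gave 4 between stationary VBI-2 and VBI-0. Between BY-2H and BY-2 the edgeR test called 2, 2 and 4 without stationary BY-2H replicate 1, 2 or 3. Stationary BY-2 also had the shift of 0.43 between the TMM and TPM scales, whose part in these calls was not tested. Without overlap of the libraries in TPM were 6 members between BY-2H and BY-2 (58.1% of detected transcripts), 8 in each VBI comparison (63.2% in the stationary and 62.3% in the exponential phase), 10 between the phases of BY-2H (21.4%), 7 in VBI-2 (19.3%) and 13 in VBI-0 (33%). These contrasts are made of the means that chose the members, so nothing is read from these counts.

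Of the transcripts in the copy of the study's auxin list used here, 21 were abundant and 0 were members, where members made up 2.09% of all abundant transcripts, so nothing is read from this count. The 21 had ratios of 1.55 to 8.73. The most even of them was Nitab4.5_0002763g0010.1. Both abundant members of the AUX/IAA family, which repress auxin responses until auxin receptors have them degraded, had ratios of 7.12 and 8.73. No transcript of the ARF, receptor, SAUR-like, biosynthesis, metabolism or transport classes was abundant, nor any of 18 PRC2 components or of 72 line-specific transcription factors.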

How the data were processed

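RNA-seq of 21 libraries in 7 groups of 3 was analysed. Estimated counts, TPM values and effective lengths per transcript were deposited by the authors as made by Salmon 1.3.0 on the Nicotiana tabacum v.4.5 cDNA set. The labels' processing notes name Trimmomatic for trimming. The study's methods name Trim Galore instead, together with read correction by Rcorrector, so the sources differ on the trimmer. Reads fitting several transcripts are shared among them. Libraries held 10545447 to 22564711 estimated reads.

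Group means of the TPM values that the authors deposited chose the members. Estimated counts were rounded and tested with edgeR 4.0.16 (TMM, quasi-likelihood F test, Benjamini-Hochberg adjustment over all transcripts tested) within the BY-2H and BY-2 pair, the BY-2H phases and the 4 VBI groups, and over all 7 groups. Transcripts with a group mean above 0.5 TPM were kept. The main fits held no offset for effective length. The SE is the absolute log2 fold change over the square root of F. The study itself used sleuth. Geometric means were compared by exact permutation tests, two-sided.

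Alternatives included limma 3.58.1 and DESeq2 1.42.0 (R 4.3.3). Scripts were tested on simulated data. Named were the references, the 8 members with the lowest ratio, the 5 most abundant, the 3 inside and outside each limit, the 3 with the least and the 3 with the most spread, the 3 most like the geometric mean of the references, and the RT-qPCR targets. Members and lists were chosen with earlier results of these data known. Groups by product name were not formed, since no names matched.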

Additional observations from a re-analysis of the deposited data

Results flagged for a closer look

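The difference between the habituated and the dependent line in the stationary phase was not the same in both cultivars for either reference, by the interaction term of a single edgeR fit. For NtEF1a, the log2 fold change of BY-2H over BY-2 minus that of VBI-2 over VBI-0 was 1.14 ± 0.17 (SE; edgeR, adjusted p = 2.5e-06). On log2 TPM means, NtEF1a differed by 0.24 in BY-2H over BY-2 and by -1.13 in VBI-2 over VBI-0. For aminopeptidase the same term was -0.54 ± 0.13 (edgeR, adjusted p = 0.000877), with 0.11 in BY-2H over BY-2 and 0.51 in VBI-2 over VBI-0 on log2 TPM means. Company and read type differed between BY-2H and BY-2 and not between VBI-2 and VBI-0, and cannot be told apart from the line there. Both results came from 8 such terms, and the other 6 had adjusted p of 0.121 or more (edgeR). Over the 27 members the same stationary term ran from -1.18 (Nitab4.5_0008782g0060.1) to 0.52 (Nitab4.5_0002995g0050.1). It was -0.57 for Nitab4.5_0001101g0090.1, the member with the lowest ratio. The value of aminopeptidase lay within this range and that of NtEF1a outside it. Stationary BY-2 had the shift of 0.43 between the TMM and TPM scales, whose part was not tested. The share of all transcripts called for this term is not given here.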

How the results depend on the processing

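The number of stable abundant transcripts, 27, was 2, 59 and 260 with ratio limits of 1.2, 1.5 and 2, and 66, 11 and 164 with level minimums of 20 TPM, 100 TPM and 0.5 TPM. It was 5 over single libraries, 136 without stationary BY-2, 102 without both BY-2H groups, 43 with reads per annotated length and 118 with TMM-scaled levels without stationary BY-2, the last 2 chosen after seeing the data. TMM and median-of-ratios scaling gave 34 and 33, sharing 2 and 1 with the 27. Without a single library it was 24 to 32, and 17 members were in all 21 of these lists.

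For NtEF1a, BY-2H over BY-2 had 0.24 with limma and either pseudocount and 0.052 without stationary BY-2 replicate 3 (range -0.25 to 0.052 without 1 library). Between the phases, NtEF1a was not called by limma (-0.22 in BY-2H, -0.19 in VBI-2) or with all 21 libraries in 1 fit (-0.25 and -0.29), nor in VBI-2 with an effective length offset (-0.22). Without 1 library the value in VBI-2 was -0.37 to -0.21. Aminopeptidase, BY-2H over BY-2, had 0.11 with limma, and was called with all 21 libraries (-0.21, edgeR, adjusted p = 0.0462). It was called between the BY-2H phases by DESeq2 (-0.18, adjusted p = 0.0491). The cause of these changes was not tested.

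Members called numbered 2 by limma for BY-2H over BY-2, and 5 for stationary and 6 for exponential VBI-2 over VBI-0. They were 0 or 1 between the BY-2H phases (pseudocounts 0.5 and 1) and 16 over 7 groups. With all 21 libraries they were 3, 9, 0 and 5 for stationary and exponential VBI-2 over VBI-0 and the BY-2H and VBI-0 phases. The length offset gave 4 for stationary VBI-2 over VBI-0, and DESeq2 gave 1 between the VBI-2 phases. Without 1 library they were 2 to 16 for BY-2H over BY-2 (2, 2 and 4 without stationary BY-2H replicates 1, 2 and 3), 5 to 8 for stationary VBI-2 over VBI-0 (5 without stationary VBI-2 replicate 3), and 2 to 7 between the BY-2H phases (2 and 7 without stationary BY-2H replicates 1 and 3). They were 0 to 1 between the VBI-2 phases and 5 to 10 between the VBI-0 phases (5 without stationary VBI-0 replicate 1 or 3).

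The geometric mean of the references, BY-2H over BY-2, was -0.37 with TMM and -0.40 with median-of-ratios scaling. Between the VBI-2 phases it was -0.013 with group medians and -0.049 with reads per annotated length, and -0.041 to 0.059 without 1 library (-0.041 without stationary replicate 3, -0.03 without exponential replicate 1). Members' median spread in stationary BY-2 was 25.6% with TMM scaling and 5.74% to 14.3% without 1 library.

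Replicate numbers did not pair the samples: same-numbered libraries correlated at -0.09 to 0.13. With the number as a block, NtEF1a in stationary VBI-2 over VBI-0 stayed at -1.26, no reference call changed, and 9, 9, 14, 4, 0, 7 and 25 members were called in BY-2H over BY-2, stationary and exponential VBI-2 over VBI-0, the BY-2H, VBI-2 and VBI-0 phases, and 7 groups.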
